A study of Mus musculus with 6 samples.

Results

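The peroxide and superoxide detoxifying enzymes described here are encoded by 10 mouse genes taken by name from the deposited gene table, which lists 22040 genes. They are the glutathione peroxidases Gpx1, Gpx3 and Gpx4, the peroxiredoxins Prdx1, Prdx3, Prdx5 and Prdx6, catalase (Cat) and the superoxide dismutases Sod1 and Sod2. Each name matched 1 row, and all 10 genes passed the filter on low counts. RNA-seq was run on total RNA of the renal cortex of WT C57BL/6 mice. The 3 IR24h libraries came from acute kidney injury, with 30 min of clamping of both renal pedicles and 24 h of reperfusion. The 3 sham libraries came from mice labelled sham, and the labels attach the same surgical text to both groups. The sources used here do not say whether each library is a separate mouse, nor give age or sex, so p-values measure the spread between these libraries, which may be technical.

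Superoxide dismutases turn superoxide into hydrogen peroxide, and catalase, the glutathione peroxidases and the peroxiredoxins reduce that peroxide further. Glutathione peroxidases draw electrons from glutathione, and most peroxiredoxins from thioredoxin, both of which are recharged with NADPH. The enzymes are spread over the cell: Sod2 and Prdx3 in the mitochondrial matrix, catalase in peroxisomes, and Sod1 mainly in the cytosol. Gpx3 is the secreted glutathione peroxidase of plasma, and the kidney is its main source. Gpx1, Gpx3 and Gpx4 are selenoproteins in the mouse.

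IR24h libraries held 12877237 to 15998975 counts and sham libraries 14339985 to 17061844, over the 21957 genes with values in both groups. Genes of the mitochondrial genome took 68.9, 26.2 and 49.2% of the counts in IR24h libraries 1, 2 and 3 and 13.1 to 14.2% in sham. IR24h library 2 correlated with IR24h 1 and 3 at r = 0.831 and 0.841 over log2 CPM of the tested genes, and with sham at 0.864 to 0.877. Libraries IR24h 1 and 3 correlated with each other at 0.927 and the sham libraries at 0.980 to 0.987. Where leaving out IR24h 2 changed a call of a named gene, the value without it is given. The summed level of 16 proximal tubule markers was 12117 to 20793 CPM in IR24h and 33346 to 39212 CPM in sham, with 10 lower, 1 higher and 5 not called. Kap carried much of that sum, and the other 15 markers summed to 6979 to 7037 CPM in IR24h and 24538 to 26070 CPM in sham. Tubular injury markers were higher for 9 of 10, beside 8.65% of all tested genes (7.62% lower). The part of these shifts in the results on the enzymes was not tested. In whole cortex, fewer cells of a type and less RNA per cell cannot be told apart.

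Of the 10 genes, 5 fell in the injured cortex, 0 rose and 5 were not called, and 7 had an unadjusted p under 0.05, all of them lower, against 34.1% of all tested genes in either direction. The genes that fell were Gpx3, Gpx4, Prdx1, Prdx3 and Sod2, by log2 fold changes between −3.94 and −0.996. Among all 13609 genes tested, 7.62% were called lower and 8.65% higher (edgeR quasi-likelihood test of counts, 2-sided, Benjamini-Hochberg adjusted p under 0.05 over all genes). The median log2 fold change was −1.17 over the 10 genes and 0.05 over all genes. The 10 genes and the lists were chosen with earlier results of these data known, so counts set beside these shares are descriptive. In 7 of the 10, every IR24h library lay below every sham library, as in 21.7% of tested genes, and 0 of the 10 lay wholly above, as in 19.9%. These were the 5 called genes with Gpx1 and Cat, while Prdx5, Prdx6 and Sod1 overlapped between the groups. An exact permutation test of log2 CPM over the 20 assignments gave p = 0.1 for each of the 7, the smallest that 3 against 3 libraries allow. Of the 5 falls, 4 concern genes with the same implied length in both groups, and Sod2 is the exception.

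The count of 5 depended on the libraries and the scaling. Without sham 1, 2 or 3, 0 of the 10 genes were called, beside 1.70, 1.53 and 1.41% of all genes called lower. Without IR24h 2, 7 were lower, with Gpx1 and Cat added, beside 24.5% of all genes, and with IR24h 2 as the only injured library 9 were, all but Prdx6, beside 19.2%. Without IR24h 1 the lower genes were Gpx3, Gpx4 and Prdx3, beside 5.08% of all genes, and without IR24h 3 they were Gpx1, Gpx4 and Sod2, beside 5.41%. When libraries were scaled by size alone, 0 of the 10 were called, beside 4.49% of all genes, and with upper-quartile scaling 3 were lower, beside 7.07%. Gpx3, Gpx4 and Prdx3 were called in every fit with all 6 libraries other than scaling by size alone. DESeq2 called 7 lower, beside 10.9% of all genes, and limma-voom 6, beside 8.80%. A fit without a count filter called 6 lower, beside 5.89%. Size factors by relative log expression and leaving out mitochondrial genome genes gave 5 each, beside 7.61 and 7.33%. A term for replicate number gave 4 lower, beside 6.19%. A length offset gave 5 lower, beside 7.58%, with Gpx1 added and Sod2 lost, and Sod1 was called higher. Among genes of equal implied length 4 of 7 were lower, beside 7.59%.

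**Figure D1:**
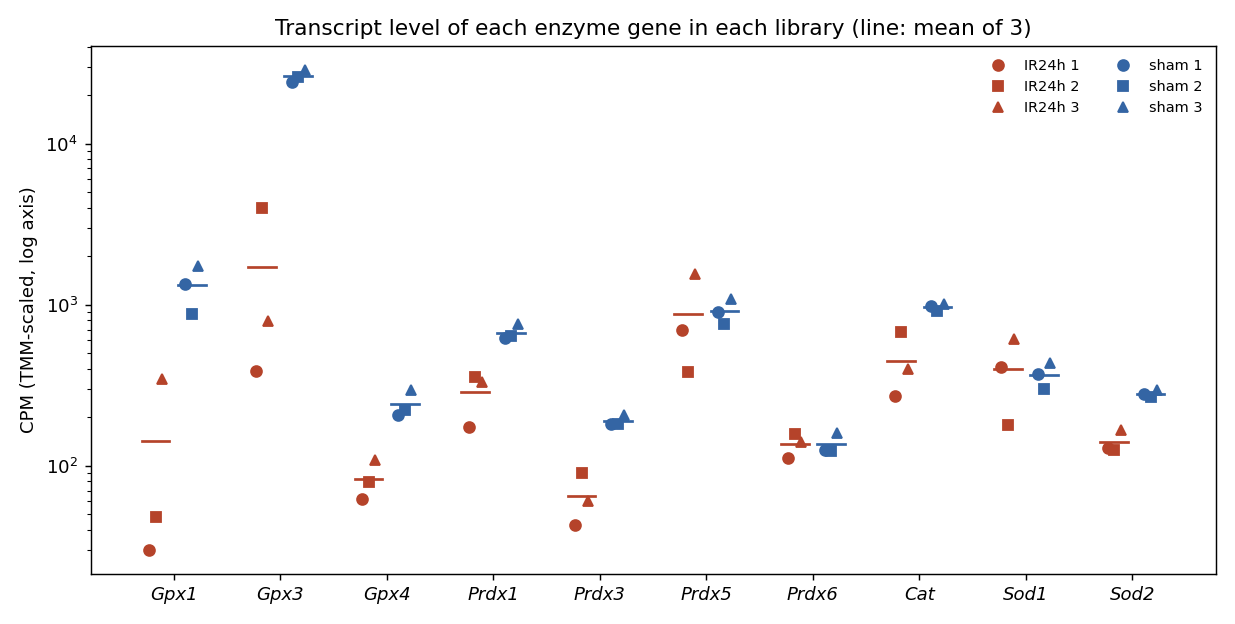
CPM of each of the 10 genes in each library on a log axis, IR24h in red on the left and sham in blue on the right of each gene, with a line at the mean of 3 libraries. Gpx3 lies at 388 to 3965 CPM in IR24h and 24126 to 28643 CPM in sham, and the groups overlap for Prdx5, Prdx6 and Sod1 alone.

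The glutathione peroxidases held the 2 lowest log2 fold changes of the 10. Gpx3 (ENSMUSG00000018339, chr11:54902453-54910377, plus strand, GRCm38) had 388, 3965 and 791 CPM in IR24h libraries 1, 2 and 3, against 24126, 26001 and 28643 CPM in sham libraries 1, 2 and 3. CPM are counts scaled to library size with trimmed mean of M-values (TMM) factors. Every injured library held a small part of the sham level, 1.48, 15.1 and 3.01% of the sham mean, and IR24h 2 kept the most. The mean was 1715 ± 1960 CPM in IR24h and 26256 ± 2270 CPM in sham (SD, n = 3 each), a log2 fold change of −3.94 ± 0.91 (SE; edgeR adjusted p = 0.0276), or 15.3-fold lower. Without IR24h 2 the log2 fold change was −5.48 (edgeR adjusted p = 4.66e-04), and with IR24h 2 as the only injured library −2.72. Of the 16 proximal tubule markers, 10 were highest in IR24h 2 among the injured libraries, as Gpx3 was, 2 in IR24h 1 and 4 in IR24h 3. Their sum was 17814, 12117 and 20793 CPM in IR24h 1, 2 and 3, and without Kap 6988, 7037 and 6979 CPM. The part of these markers' cells in the Gpx3 values was not tested. The Gpx3 call was lost without IR24h 3 (edgeR adjusted p = 0.0799) and without sham 1, 2 or 3 (edgeR adjusted p = 0.0819 to 0.0934).

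In sham, Gpx3 was the most counted gene of the nuclear genome in the cortex. It ranked 119, 4 and 46 in IR24h libraries 1, 2 and 3 and first in all sham libraries. Its share of the summed counts of the 10 genes was 16.8, 65.5 and 17.5% in IR24h 1, 2 and 3 and 82.7 to 85.9% in sham. This share does not depend on library scaling. As a whole, the 10 genes took 0.407, 1.0 and 0.764% of the counts outside the mitochondrial genome in IR24h 1, 2 and 3, against 4.10 to 4.68% in sham. Without Gpx3 the other 9 took 0.339, 0.346 and 0.630% in IR24h and 0.608 to 0.809% in sham, so that IR24h 3 then lay within the sham range.

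**Figure D2:**
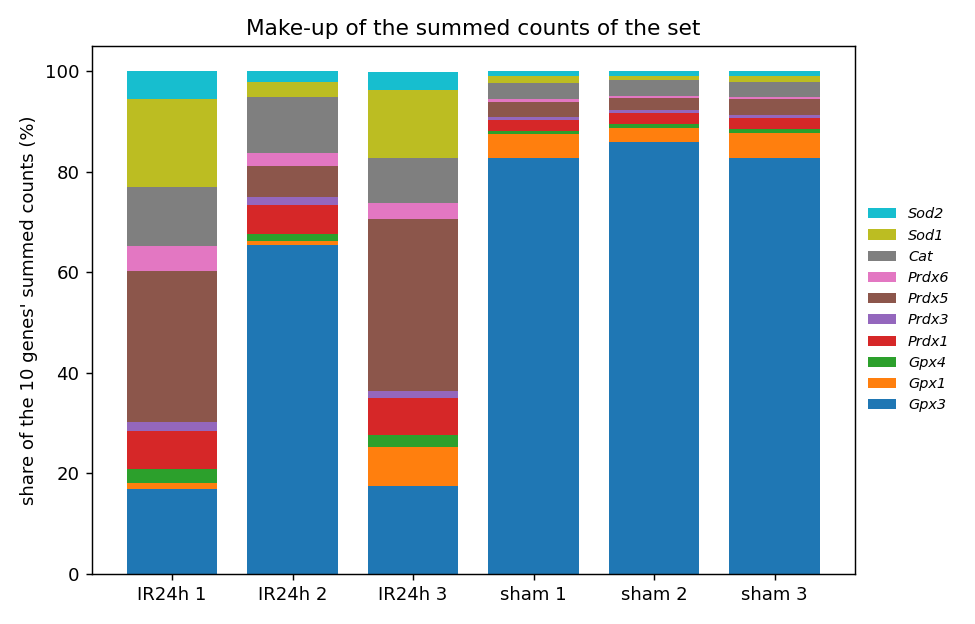
Share of each gene in the summed counts of the 10 genes (%) in each library, IR24h on the left and sham on the right. Gpx3 takes 82.7 to 85.9% in sham, 65.5% in IR24h 2 and 16.8 and 17.5% in IR24h 1 and 3, where Prdx5 takes 30.1 and 34.4%.

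Gpx1, the glutathione peroxidase of cytosol and mitochondria (ENSMUSG00000063856, chr9:108338903-108340343, plus strand), had 30.1, 48.1 and 346 CPM in IR24h 1, 2 and 3, against 1350.1, 876 and 1736 CPM in sham 1, 2 and 3. All injured libraries were below all sham libraries, and the injured ones differed among themselves by 11.5-fold, with IR24h 3 the highest. The log2 fold change was −3.22 ± 0.93 (edgeR adjusted p = 0.0550), just short of a call, with a 95% interval of −5.40 to −1.04. It was called by limma-voom (adjusted p = 0.0252) and DESeq2 (adjusted p = 5.10e-04), and without IR24h 3 its log2 fold change was −5.08 (edgeR adjusted p = 0.00652). Without IR24h 2 it was −2.81 (edgeR adjusted p = 0.0464). Gpx1 took 1.56, 2.30 and 9.30% of the counts of the 9 genes other than Gpx3 in IR24h and 20.5 to 29.0% in sham.

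Gpx4, which reduces lipid peroxides within membranes and restrains ferroptosis (ENSMUSG00000075706, chr10:80047166-80056439, plus strand), had 62.5, 78.8 and 108 CPM in IR24h 1, 2 and 3, against 206, 222 and 297 CPM in sham 1, 2 and 3. The injured libraries were close together, at 25.9, 32.6 and 44.9% of the sham mean. Gpx4 fell by 1.54 ± 0.31 on the log2 scale (edgeR adjusted p = 0.0171), and it kept its call without any single IR24h library. Of the 50-base stretches of Gpx4 transcripts, 34.7% recur in other annotated genes, chiefly the pseudogene Gpx4-ps2, and the sources used here do not say how such reads were counted. Other members of the family were not called, and of the 6 tested genes from the 3 families outside the 10, 2 (Gpx8 and Prdx4) had an unadjusted p under 0.05, near the 34.1% of all tested genes. Gpx6 had 11.4 ± 10.2 CPM in IR24h and 21.4 ± 7.31 CPM in sham, and Gpx7 3.59 ± 2.13 CPM in IR24h and 1.56 ± 0.582 CPM in sham. Gpx8, an enzyme of the endoplasmic reticulum, had 15.8 ± 9.23 CPM in IR24h and 6.62 ± 0.714 CPM in sham, with another gene length behind each group. Without IR24h 2, Gpx7 and Gpx8 were called higher, with log2 fold changes of 1.61 and 1.62 (edgeR adjusted p = 0.0139 and 0.00325), and without IR24h 3 Gpx6 was called lower, at −1.97 (edgeR adjusted p = 0.0371). Gpx2 had 14, 2 and 0 counts in IR24h and 0, 0 and 2 in sham, and Gpx5 had 0 in every library.

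The peroxiredoxins divided into a pair that fell and a pair that was not called. Prdx3, the thioredoxin-dependent peroxidase of the mitochondrial matrix (ENSMUSG00000024997, chr19:60864051-60874556, minus strand), had 43.0, 90.1 and 60.6 CPM in IR24h 1, 2 and 3, against 182, 182 and 206 CPM in sham 1, 2 and 3. All injured libraries lay below sham, at 22.7, 47.4 and 31.9% of the sham mean. Prdx3 fell by 1.55 ± 0.32 on the log2 scale (edgeR adjusted p = 0.0189), and the log2 fold change was −1.06 with IR24h 2 as the only injured library. Without IR24h 3 the call was lost (edgeR adjusted p = 0.0564).

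Prdx1, an abundant cytosolic peroxiredoxin (ENSMUSG00000028691, chr4:116685544-116700822, plus strand), had 175, 354 and 332 CPM in IR24h 1, 2 and 3, against 619, 635 and 760 CPM in sham 1, 2 and 3. IR24h 1 was the lowest, and the other two injured libraries were at 52.8 and 49.4% of the sham mean. Prdx1 fell by 1.23 ± 0.34 on the log2 scale (edgeR adjusted p = 0.0472), close to the threshold. The call was lost without IR24h 1 or 3 (edgeR adjusted p = 0.0611 and 0.0761), with upper-quartile scaling (0.0526), with a term for replicate number (0.0616) and when libraries were scaled by size alone (0.129). Of its 50-base stretches, 8.81% recur in other annotated genes.

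Prdx6, which also acts on phospholipid peroxides and has a single active cysteine (ENSMUSG00000026701, chr1:161240112-161251219, minus strand), had 112, 157 and 141 CPM in IR24h 1, 2 and 3, against 125, 123 and 159 CPM in sham 1, 2 and 3. IR24h 1 lay just below the sham range, and IR24h 2 and 3 lay within it. The log2 fold change was 0.01 ± 0.25 (edgeR adjusted p = 0.982), with a 95% interval of −0.59 to 0.60. Its share of the counts of the 9 genes other than Gpx3 was 5.81, 7.55 and 3.78% in IR24h and 2.50 to 2.88% in sham.

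Prdx5, found in mitochondria, peroxisomes and cytosol (ENSMUSG00000024953, chr19:6906697-6910106, minus strand), had 698, 380 and 1554 CPM in IR24h 1, 2 and 3, against 895, 758 and 1091 CPM in sham 1, 2 and 3. IR24h 1 and 2 lay below and IR24h 3 above every sham library. The log2 fold change was −0.06 ± 0.51 (edgeR adjusted p = 0.945), with a 95% interval of −1.24 to 1.12, so changes in either direction lie within it. With IR24h 2 as the only injured library it was −1.26, and without IR24h 2 it was 0.29 (edgeR adjusted p = 0.525). Of the exon bases of Prdx5, 19.1% overlap Trmt112 on the opposite strand, and the sources used here do not say whether counting used strand. Trmt112 itself had 16.8 ± 5.83 CPM in IR24h and 11.8 ± 1.55 CPM in sham, far under Prdx5. Prdx2 and Prdx4, the other tested peroxiredoxins, were not called, with log2 fold changes of −0.55 ± 0.42 and −1.21 ± 0.37 (edgeR adjusted p = 0.389 and 0.0644). Prdx4 was called lower by DESeq2 (adjusted p = 0.0195) and limma-voom (adjusted p = 0.0497), and by edgeR without IR24h 2 (adjusted p = 0.0439) or IR24h 3 (adjusted p = 0.0272). Prdx6b had 0 counts in every library.

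Catalase, the heme enzyme of peroxisomes (Cat, ENSMUSG00000027187, chr2:103453849-103485160, minus strand), had 271, 673 and 401 CPM in IR24h 1, 2 and 3, against 975, 918 and 1009 CPM in sham 1, 2 and 3. All injured libraries were lower, with IR24h 2 nearest to sham at 69.5% of the sham mean. The log2 fold change was −1.11 ± 0.37 (edgeR adjusted p = 0.0810, 95% interval −1.98 to −0.24). It was −1.53 without IR24h 2 (edgeR adjusted p = 0.00279) and −0.51 with IR24h 2 as the only injured library. DESeq2 called Cat in the full set (adjusted p = 0.0236).

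**Figure D3:**
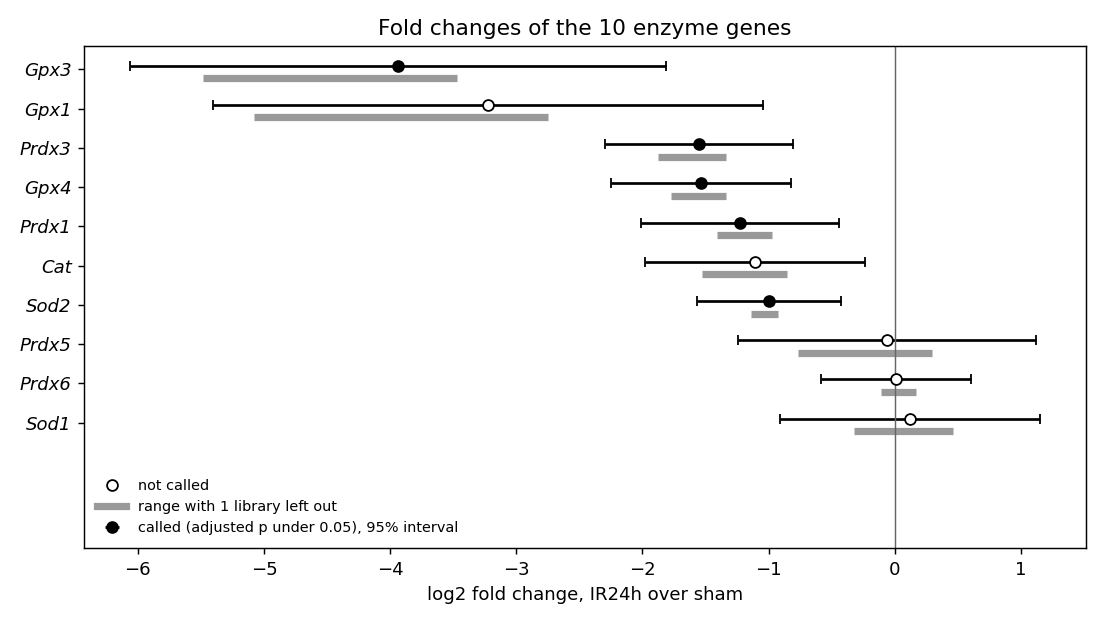
Log2 fold change of each gene, IR24h over sham, with its 95% interval (filled where called, open where not) and in grey the range when 1 library is left out. The grey ranges lie below 0 for the 7 genes from Gpx3 to Sod2 and cross 0 for Prdx5, Prdx6 and Sod1.

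Sod2, the manganese superoxide dismutase of the mitochondrial matrix (ENSMUSG00000006818, chr17:13006846-13040063, plus strand), had 129, 125 and 167 CPM in IR24h 1, 2 and 3, against 277, 268 and 296 CPM in sham 1, 2 and 3. The injured libraries were tight and all below sham, at 46.1, 44.6 and 59.7% of the sham mean. By counts the log2 fold change was −0.996 ± 0.25 (edgeR adjusted p = 0.0334). The call was lost without IR24h 1 (edgeR adjusted p = 0.0667), with upper-quartile scaling (0.0510) and with a term for replicate number (0.0740). By FPKM, counts scaled to gene length and library size by the authors, Sod2 had a higher mean in the injured cortex, with 32.0 ± 11.8 FPKM in IR24h and 24.0 ± 0.562 FPKM in sham (SD, n = 3 each). The gene length that count and FPKM imply was 3824 bases in IR24h and 12870 bases in sham. With this length entered as an offset, an alternative chosen after these values were seen, the log2 fold change of Sod2 was 0.75 (edgeR adjusted p = 0.0678). The direction of Sod2 thus differed between counts and length-scaled counts. Of its 50-base stretches, 21% recur in other annotated genes.

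Sod1, the copper and zinc superoxide dismutase (ENSMUSG00000022982, chr16:90220754-90226329, plus strand), had 408, 180 and 610 CPM in IR24h 1, 2 and 3, against 373, 298 and 432 CPM in sham 1, 2 and 3. IR24h 2 was below and IR24h 3 above every sham library. The log2 fold change by counts was 0.12 ± 0.44 (edgeR adjusted p = 0.872, 95% interval −0.91 to 1.15), and it was −1.02 with IR24h 2 as the only injured library. By deposited FPKM, Sod1 had 345, 340 and 813 in IR24h 1, 2 and 3, against 97.9, 77.6 and 106 in sham 1, 2 and 3, without overlap. The implied length was 646 bases in IR24h and 4313 bases in sham, a ratio of 6.68. GENCODE M21 lists 2 Sod1 transcripts, a coding one of 641 bases and a retained-intron one of 3970 bases. With the implied length as an offset the log2 fold change was 2.86 (edgeR adjusted p = 0.00794), so Sod1 was called higher with length in the model and not called without it. Sod3, the secreted superoxide dismutase, had the same length in both groups and was not called, with 370 ± 124 CPM in IR24h and 571 ± 74.3 CPM in sham.

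Among the 10 genes, Prdx5 was the remaining one with a differing implied length, 3875 bases in IR24h and 4002 bases in sham. The other 7 had equal lengths in both groups, and their direction by FPKM and by counts was the same except for Prdx6. Prdx6 had 13.7 ± 7.19 FPKM in IR24h and 16.4 ± 1.81 FPKM in sham. Of 14239 genes with at least 5 counts in a library of each group, 13.1% had an implied length that differed between the groups by over 0.01 on the log2 scale, and 0 differed within a group. Since each length belongs to 1 group, processing and injury cannot be told apart for Sod1 and Sod2. Relative to IR24h, the library total that the FPKM imply exceeded the listed counts by 7.9, 8.34 and 9.73% in sham 1, 2 and 3. Whether the counts, too, were made differently in the groups was not tested, for any of the 10 genes.

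**Figure D4:**
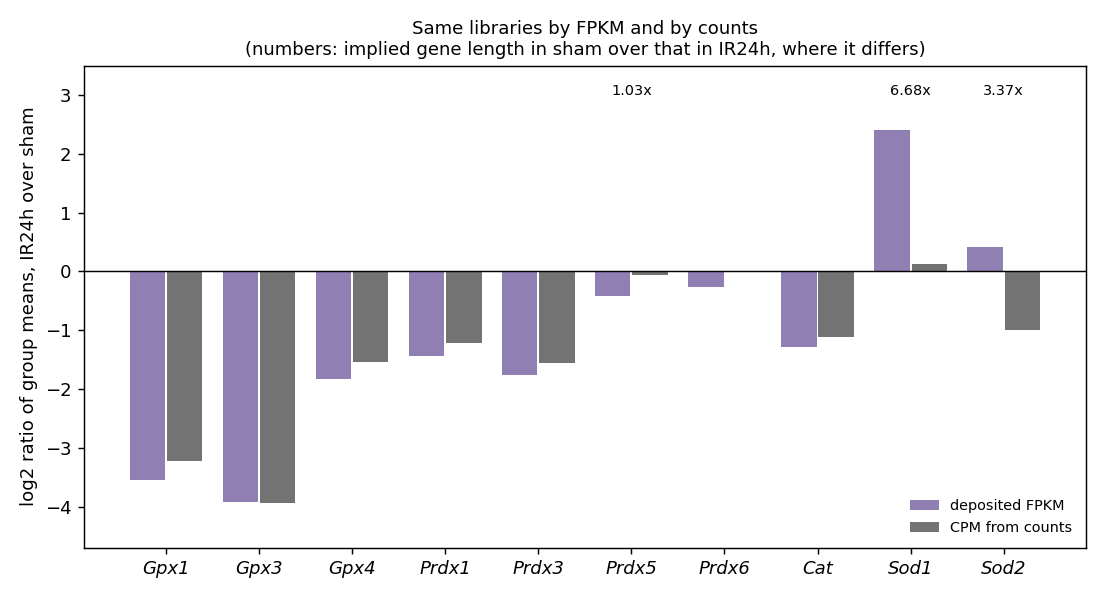
Log2 ratio of group means, IR24h over sham, by deposited FPKM and by CPM from the counts, with the implied length in sham over that in IR24h printed where it differs. Sod2 and Sod1 stand apart, at 0.41 and 2.41 by FPKM, with length ratios of 3.37 and 6.68.

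Levels of different genes can be set side by side only per length. Per kilobase of GENCODE M21 exon, counted once where transcripts overlap, the IR24h means were 946 CPM for Gpx3, 410.0 for Prdx5 and 172 for Cat, followed by Sod1, Gpx1 and Prdx1 at 100.5, 98.1 and 94.3. Gpx4, Prdx3, Prdx6 and Sod2 came last, at 48.3, 43.7, 28.5 and 14.0. Libraries of neighbours in this order overlapped in IR24h, except those of Prdx6 and Sod2. In sham the order was Gpx3 at 14480 CPM per kilobase, Gpx1 at 917, Prdx5 at 428, Cat at 370.2 and Prdx1 at 221. Gpx4 and Prdx3 followed at 140.2 and 128, then Sod1 at 92.6, Prdx6 at 28.3 and Sod2 at 28.0. In sham the libraries overlapped for Prdx5 and Cat, for Gpx4 and Prdx3 and for Prdx6 and Sod2. Within each single sham library Prdx5 lay above Cat, while the order in the other pairs switched between libraries. The exon length used for Sod1 includes the retained intron. The implied length behind the FPKM exceeded the exon length by over 0.5% for 83.5% of genes in IR24h and 89.3% in sham. It was 2.37 times the exon length for Gpx1 and equalled it for Prdx3.

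The 3 injured libraries ordered the genes differently. IR24h 1 was the lowest injured library for 7 genes (Gpx1, Gpx3, Gpx4, Prdx1, Prdx3, Prdx6 and Cat) and the highest for 0. IR24h 2 was the lowest for Prdx5, Sod1 and Sod2 and the highest for Gpx3, Prdx1, Prdx3, Prdx6 and Cat. IR24h 3 was the highest for the other 5. The highest injured library exceeded the lowest by 11.5-fold for Gpx1, 10.2-fold for Gpx3 and 4.09-fold for Prdx5, but by 1.34-fold for Sod2 and 1.40-fold for Prdx6. Among sham libraries these ratios ran between 1.10 for Cat and 1.98 for Gpx1. The share of mitochondrial genome counts was highest in IR24h 1 and lowest in IR24h 2 among the injured libraries, and its part in this spread was not tested.

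Of the promoters, those of Prdx1 and Sod1 hold the core of the antioxidant response element, the site bound by the oxidant-responsive factor NRF2. In the 250 bases before each RefSeq start (GRCm38.p6, 12 starts for 9 of the 10 genes, with no entry for Prdx6), the core TGACNNNGC, searched on both strands, was found at 2 starts. It was found at 10.2% of 32851 mouse starts. The GC box GGGCGG, also searched on both strands, was found at 10 of the 12 starts and at 32.7% of all starts. Those 10 include more than 1 start of Gpx4, some with overlapping windows, so they are not independent. The stretch shown for Gpx3 holds 0 GC boxes. The stretches are shown for both genes, and for Gpx3 and Prdx3, which fell and lack the antioxidant response core there. Each is cut at the first base of its 250 that GENCODE M21 places in an exon of the gene. Each runs 5′ to 3′ on the gene's strand, and has the core in capitals. The Gpx3 stretch lies inside the gene as GENCODE M21 draws it, which starts at 54902453, between annotated exons.
Prdx1, chr4:116685349-116685543, plus strand: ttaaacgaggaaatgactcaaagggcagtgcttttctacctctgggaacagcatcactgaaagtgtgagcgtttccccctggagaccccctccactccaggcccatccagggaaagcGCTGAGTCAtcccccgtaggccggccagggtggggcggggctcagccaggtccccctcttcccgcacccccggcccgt
Sod1, chr16:90220512-90220753, plus strand: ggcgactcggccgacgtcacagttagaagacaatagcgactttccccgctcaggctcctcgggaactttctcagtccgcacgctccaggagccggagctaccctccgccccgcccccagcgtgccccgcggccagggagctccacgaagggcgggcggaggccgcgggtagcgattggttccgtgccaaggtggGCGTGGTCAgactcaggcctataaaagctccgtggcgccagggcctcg
Gpx3, chr11:54902604-54902771, plus strand: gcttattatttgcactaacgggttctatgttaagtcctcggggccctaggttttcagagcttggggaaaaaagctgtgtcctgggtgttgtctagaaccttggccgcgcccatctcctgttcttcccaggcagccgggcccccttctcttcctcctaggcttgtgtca
Prdx3, chr19:60874557-60874788, minus strand: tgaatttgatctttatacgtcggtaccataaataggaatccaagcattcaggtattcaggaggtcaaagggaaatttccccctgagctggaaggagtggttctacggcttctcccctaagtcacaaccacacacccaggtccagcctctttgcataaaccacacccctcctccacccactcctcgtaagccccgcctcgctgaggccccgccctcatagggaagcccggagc
The match begins 133 bases before the RefSeq start in Prdx1, which fell, and 56 bases before it in Sod1, which was not called by counts. It is a match of letters, and no binding was measured.

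Genes that supply these enzymes with electrons were mostly not called, and the thioredoxin system had none. Most genes tested were likewise not called, with 16.3% called in either direction. Of 10 tested thioredoxin, thioredoxin reductase, sulfiredoxin and sestrin genes, 0 were called by edgeR and 3 had an unadjusted p under 0.05, near the 34.1% of all tested genes, with a median log2 fold change of −0.06 against 0.05 over all genes. Txnip, the thioredoxin-interacting protein, had 157 ± 115 CPM in IR24h and 298 ± 89.3 CPM in sham, and it was called lower without IR24h 2 (log2 fold change −1.69, edgeR adjusted p = 0.0144). Of 9 genes of glutathione synthesis, reduction and glutaredoxins, 1 fell (beside 7.62% of all genes) and 8 were not called, with a median of −0.15. The one that fell was Glrx, the cytosolic glutaredoxin, with 12.9 ± 4.32 CPM in IR24h and 34.2 ± 3.07 CPM in sham (log2 fold change −1.41 ± 0.31, edgeR adjusted p = 0.0236). Ggt1, the brush border enzyme that cleaves glutathione outside the cell, had 753 ± 468 CPM in IR24h and 855 ± 105 CPM in sham and was not called.

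NADPH supply went both ways, with 2 of 8 genes lower, 1 higher and a median log2 fold change of 0.29. Over all tested genes, 7.62% were lower and 8.65% higher. Me1, cytosolic malic enzyme, fell to 81.4 ± 57.7 CPM in IR24h, against 451 ± 30.9 CPM in sham. Idh2, the NADP-dependent isocitrate dehydrogenase of mitochondria, fell to 161 ± 49.1 CPM in IR24h, against 371 ± 10.6 CPM in sham. Nnt, the mitochondrial transhydrogenase, rose to 29.3 ± 18.7 CPM in IR24h, against 5.34 ± 0.824 CPM in sham, with another gene length behind each group. Its IR24h libraries 1, 2 and 3 had 35.2, 44.3 and 8.39 CPM, and limma-voom did not call Nnt (adjusted p = 0.0645). Idh1, the cytosolic counterpart of Idh2, had 156 ± 138 CPM in IR24h and 460.35 ± 46.1 CPM in sham and was not called (edgeR adjusted p = 0.126). Without IR24h 2 it was called lower, at −2.57 against −1.56 with all libraries (edgeR adjusted p = 0.00259), and DESeq2 called it in the full set (adjusted p = 0.0478).

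The list for selenium and metal supply had 2 of 11 genes lower, 1 higher and a median of −0.75. The shares over all tested genes were 7.62% lower and 8.65% higher. Sephs2, which makes the selenium donor for selenocysteine, fell to 70.5 ± 22.4 CPM in IR24h, against 460.4 ± 8.55 CPM in sham (log2 fold change −2.71 ± 0.31, edgeR adjusted p = 0.00297). Eefsec, the elongation factor that delivers selenocysteine to the ribosome, fell to 12.1 ± 4.09 CPM in IR24h, against 40.3 ± 4.44 CPM in sham. Lrp8, a receptor for selenoprotein P, rose to 9.65 ± 6.92 CPM in IR24h, against 0.488 ± 0.130 CPM in sham, and its gene length differed between the groups. Selenop, which encodes selenoprotein P, the plasma carrier of selenium, had 167, 1283 and 277 CPM in IR24h 1, 2 and 3, and 2272 ± 189 CPM in sham, and was not called (log2 fold change −1.98, edgeR adjusted p = 0.104). Without IR24h 2 its log2 fold change was −3.36 (edgeR adjusted p = 5.13e-04), and DESeq2 called it in the full set (adjusted p = 0.0198).

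Beside catalase, peroxisomal oxidases that form hydrogen peroxide and the import receptors had 5 of 9 tested genes lower, 0 higher and a median of −1.26. That compares with 7.62% lower and 8.65% higher among all genes tested. Hao2, a hydroxyacid oxidase, fell to 42.8 ± 11.4 CPM in IR24h, against 244 ± 31.9 CPM in sham. Dao, the D-amino acid oxidase, fell to 74.5 ± 35.2 CPM in IR24h, against 404 ± 23.7 CPM in sham. Acox3, a peroxisomal acyl-CoA oxidase, fell by 1.54 ± 0.29 on the log2 scale and Pex5, the receptor that imports peroxisomal proteins, by 1.28 ± 0.24. Without IR24h 1 the calls of Glrx, Idh2 and Nnt were lost (edgeR adjusted p = 0.0614, 0.0735 and 0.0776), and without IR24h 3 that of Me1 (edgeR adjusted p = 0.0905). Without sham 1, 2 or 3 the calls of Glrx, Me1, Idh2, Nnt, Eefsec, Acox3 and Pex5 were lost, and those of Sephs2, Lrp8, Hao2 and Dao were kept.

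**Figure D5:**
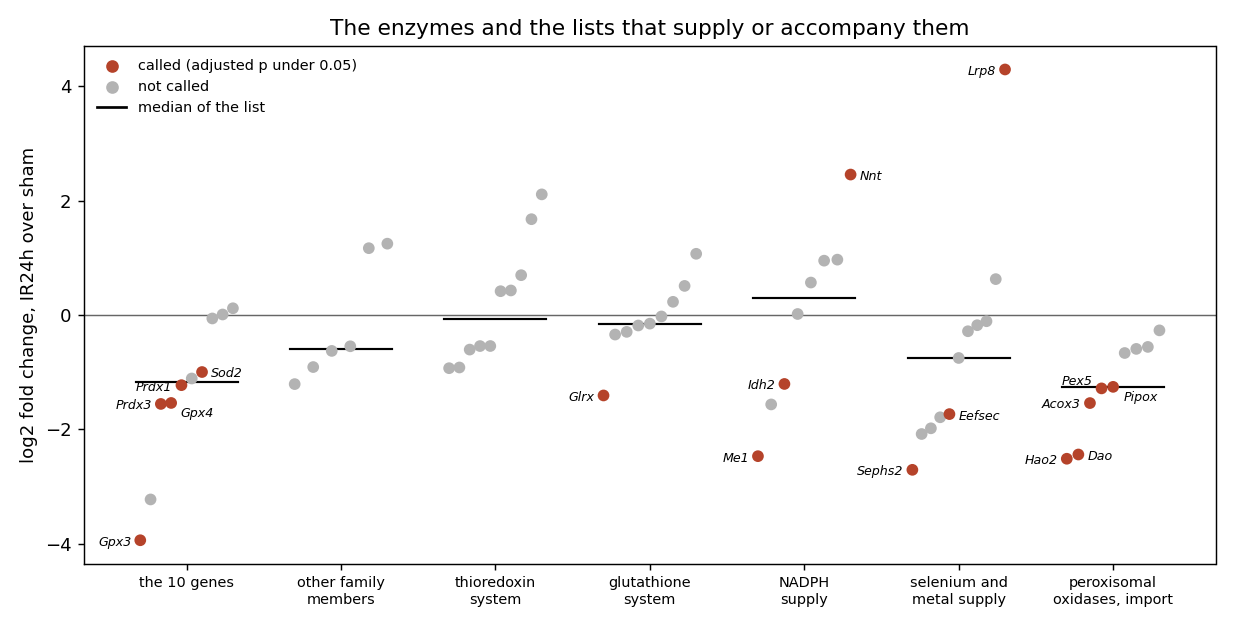
Log2 fold change, IR24h over sham, of every tested gene of the 10 enzymes and of 6 accompanying lists, called genes in red with their names, others in grey and the median as a line. The called genes of the selenium and peroxisome lists lie between −2.71 and −1.26, with Lrp8 at 4.29 the exception.

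Markers of other cells did not all move alike. Of 9 distal nephron and collecting duct markers, 4 were lower and 0 higher, beside 7.62 and 8.65% of all tested genes. Endothelium markers summed to 292, 68.9 and 256 CPM in IR24h 1, 2 and 3, and to 210 to 244 CPM in sham. Adipocyte markers summed to 82.2, 229 and 85.4 CPM in IR24h 1, 2 and 3, and to 48.0 to 88.3 CPM in sham. Of 11 macrophage and monocyte rows, 6 were higher, beside 8.65% of all tested genes. They had a summed level of 141 to 309 CPM in IR24h and 90.7 to 96.1 CPM in sham over the 11 rows. Neutrophil markers summed to 6.29 to 18.2 CPM in IR24h and 0.701 to 1.37 CPM in sham, and Ly6g, Mpo and Camp were at 0 counts in all libraries. Erythrocyte markers, of cells rich in catalase and Prdx2, summed to 24.5 to 114 CPM in IR24h and 55.7 to 98.2 CPM in sham. Of the 6 tested, 0 were called, beside 16.3% of all tested genes. The part of all these cells in the values of the enzymes was not tested.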

How the data were processed

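Per the file headers, the authors deposited raw counts of reads per gene and FPKM values for 6 libraries. Per the submitters' processing notes, CASAVA 1.8 and TopHat2 2.0.6 were used, and the builds mm10 and GRCh38 are named. The sources used here do not give the counter, the annotation or strandedness. Of 22040 genes, 83 had no sham value and were left out. Counts were tested with edgeR 4.0.16 in R 4.3.3 (expression filter, TMM scaling, quasi-likelihood test, Benjamini-Hochberg adjustment over 13609 genes). SE came from the F statistic. Alternatives used limma 3.58.1 (voom), DESeq2 1.42.0, other scalings and left-out libraries. The test was checked on simulated data. Gene lengths were implied by count, FPKM and library total, and 21880 gene identifiers were found in GENCODE M21 (build GRCm38, as mm10). Promoters are from RefSeq (GRCm38.p6). The members and lists were chosen with earlier results of these data known. Beside the members, the text names, per list, up to 4 called genes with the largest change and the gene with the highest mean CPM, and all tested family members; 1 gene under this rule is not reported here. Depth limits precision, and the totals stand at the start.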

Additional observations from a re-analysis of the deposited data

How the results depend on the processing

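The count of 5 lower genes among the 10 became 0 with library size as the only scaling, 3 with upper-quartile scaling and 9 with IR24h 2 as the only injured library, whose spread is then assumed to be like that of sham. Leaving out 1 library gave 0 to 7. The count of higher genes became 1 (Sod1) with the length offset, chosen after seeing the data. The restriction to genes of equal implied length was chosen likewise. Over all genes, 2214 were called, against 1009 with library size only, 3768 with DESeq2, 5439 with IR24h 2 alone and 458 to 6679 with 1 library left out. Over all genes the median was −0.39 with library size only and 0.14 with upper-quartile scaling, on the log2 scale. The higher share of calls was 39.4% with library size only and 53.2% with TMM.

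Directions turned for genes near 0. Prdx6 was −0.38 with library size only, −0.030 without a filter, −0.0030 with DESeq2 and −0.11 to 0.16 with 1 library left out. Sod1 was −0.45 with library size only, −0.023 with limma-voom, −1.02 with IR24h 2 alone, −0.032 with the replicate block and −0.33 to 0.46 with 1 library left out. Prdx5 was 0.067 with upper-quartile scaling and −0.77 to 0.29 with 1 library left out. Sod2 was 0.75 with the length offset, by its construction. Ggt1 was −0.74 to 0.19 with 1 library left out, and Gpx7 and Gpx8 turned to −0.46 and −0.0049 with IR24h 2 alone. For the others, the cause was not tested.

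The labels number the libraries 1 to 3 in both groups. Same-numbered libraries had deviations correlated at −0.119, 0.150 and 0.291, and IR24h 3 alone correlated best with its own number, so the numbers were not taken to pair them. With the replicate block 4 of the 10 were lower, with Gpx1 called (−4.01) and Prdx1 and Sod2 not, and 1657 genes were called. The lowest count of any of the 10 genes was 212, and no setting tested depth.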
